A study of Mus musculus with 3 samples.

Results

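Transcripts of RAW 264.7 cells, a mouse macrophage line of BALB/c background from a male, were compared between 1 library given a first shRNA against GIV and 1 library given a control shRNA. GIV, also called Girdin, is encoded by Ccdc88a. The members are the protein-coding genes with a value above 0 in all 3 libraries of the series and a mean over those 3 of at least 50 normalized counts. These were 10382 genes of the 54331 features in the table. Just outside the mean of 50 lay Spata33 (92.1, 26.2 and 31.5 in control, shRNA 1 and shRNA 2, a difference of -1.78) and Kif7 (mean 49.9), and just inside it lay Ccdc17 (mean 50.2) and Gm32687 (mean 50.3). Every library came from cells given lipopolysaccharide (LPS) at 100 ng/mL for 5 h, and unstimulated cells were not analysed here. The labels call the control cells wild-type and both shRNA groups GIV-depleted, and the design treats the 2 shRNAs against GIV as its biological replicates. They do not say whether the shRNA cells were clones or pools, and nothing in them describes the shRNA sequences.

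LPS is sensed by TLR4 together with Cd14 and Ly96. The receptor signals through the adaptor Myd88 to NF-kB and MAP kinases, which drive cytokine genes, and through Ticam1 to Irf3, which drives interferon beta and then the genes that interferon induces. GIV is a large cytoplasmic scaffold that binds actin and modulates trimeric G proteins of the Gi class downstream of many receptors. By its title, the study is about how GIV restrains what macrophages do once TLR4 is engaged.

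With 1 library on each side there is no replicate error, no test and no p-value, and every difference below is between those 2 libraries. Differences are on the log2(value + 1) scale, shRNA 1 minus control, and understate the change of low genes. Values of the library labelled shRNA 2 are set beside them, and where 3 values follow each other their order is control, shRNA 1 and shRNA 2. The totals were 49088771 (control), 49756670 (shRNA 1) and 47349097 (shRNA 2) normalized counts. If the commonest lowest value of a library stands for 1 read, a value of 50 in both libraries carries a 95% counting error of about 1.49-fold, a value of 500 about 1.13-fold and a value of 5000 about 1.04-fold. These errors cover counting only. Of 14 macrophage markers, 13 had a mean of at least 50, Mertk being the exception. The summed value of the 14 was 487174 in the control and 377532 in the shRNA 1 library. Lyz2, at 199781 and 121997, made up most of that difference, while Cd14 (119577 and 122965) and Ptprc (14039 and 16968) were above the control. Fibroblast and epithelial markers were near 0, with sums of 6.54 and 6.68 for 8 fibroblast markers and 0 and 4.45 for 7 epithelial markers. Of 10 lymphocyte markers 1, Lck, had a mean of at least 50, at 1162 in the control and 1059 in the shRNA 1 library. Likewise 1 of 8 dendritic cell markers, Xcr1, had 383 and 278, and 1 of 8 neutrophil and mast cell markers, S100a8, had 68.8 and 45.6, while Cd3e, Trac, Flt3, Siglech, Ly6g and Elane were at 0 in both.

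The targeted gene was lower in the shRNA 1 library. Ccdc88a (ENSMUSG00000032740.16, chromosome 11, 29373658 to 29510808, GRCm38) had 2580 (control), 1734 (shRNA 1) and 2561 (shRNA 2) normalized counts, a difference of -0.57 with shRNA 1 and -0.01 in the library labelled shRNA 2. Thus lower Ccdc88a mRNA was seen with shRNA 1 and not there, which was already known when this comparison was chosen. The fold of 1.49 was under the 1.5-fold rule, and the 5th percentile of all genes was -0.53. The labels call both libraries GIV-depleted, and GIV protein was not measured in these data. The paralog Ccdc88b, known as GIPIE, had 5740, 5191 and 5809, and Ccdc88c, known as Daple, had 224, 206 and 260. Both paralogs lay near the control in both, a term used below for differences under 0.32 in either direction.

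Most genes differed little between these libraries. The median difference over the 10382 genes was 0.01, 72.6% of them lay near the control, by the same bound, and the middle 90% ran from -0.53 to 0.65. Below the control were 5006 of the 10382 and above it 5376, to be set beside the counts given for lists. At least 2-fold higher in the shRNA 1 library were 223 genes (2.15%), and at least 2-fold lower were 80 (0.771%), together 2.92%. At the rule of at least 1.5-fold, 623 were higher (6%) and 386 lower (3.72%). In 54 of the 223 the control value was under 50 and in 23 of the 80 the shRNA 1 value was, so these low genes met the minimum mean through the libraries where they are high. At least 4-fold higher were 47 genes and at least 4-fold lower were 7. Such genes were more common at low abundance. Among the 519 genes with a mean under 100, 8.29% were 2-fold higher and 4.43% lower. Among the 934 genes with a mean of 10000 or more, 11 (1.18%) were 2-fold higher and 0 were lower.

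**Figure D1:**
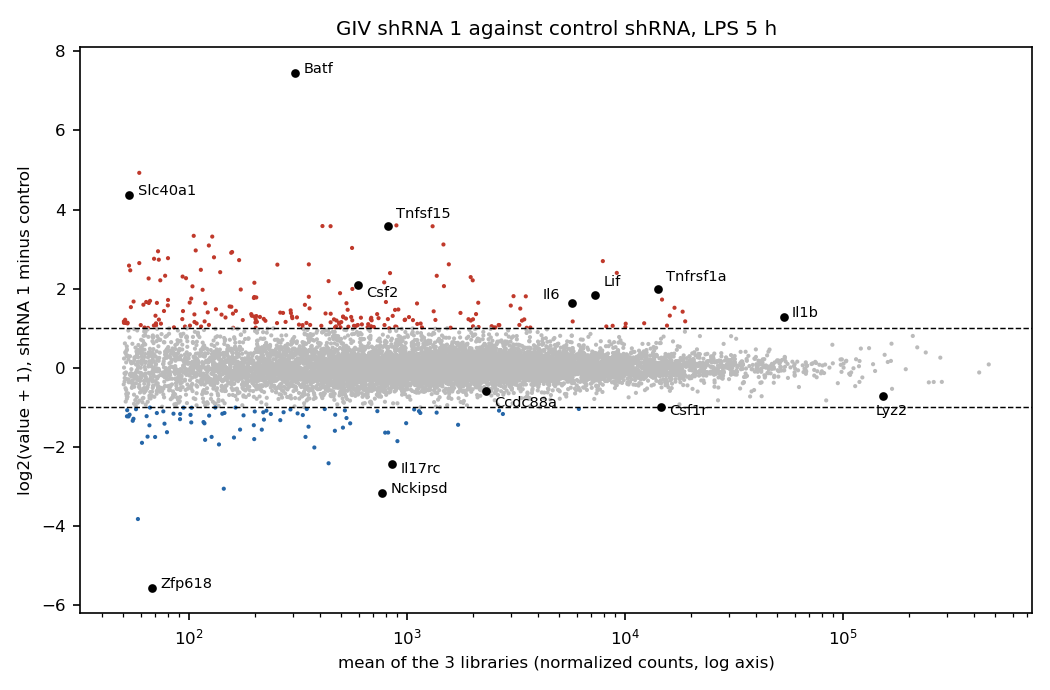
Difference of shRNA 1 minus control (vertical axis, log2(value + 1)) against the mean of the 3 libraries (horizontal log axis, normalized counts) for each of the 10382 genes; red and blue points are at least 2-fold higher or lower, dashed lines mark 2-fold and black points are labelled genes. Above a mean of 10000 normalized counts 11 genes lie above the upper dashed line and 0 below the lower one.

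Longer transcripts and those of lower GC content tended to higher values in the shRNA 1 library. With the genes cut by transcript length into 5 equal groups, the median difference went from -0.08 in the shortest to 0.13 in the longest. The share of 2-fold higher genes went from 0.722% to 3.71% in the same order. With the same number of groups by GC content, the median went from 0.13 in the lowest to -0.16 in the highest. All 13 mitochondrially encoded genes were lower, 6 of them by at least 1.5-fold against 3.72% of all genes, with a median of -0.53. The mitochondrial share of all counts was 1.43% in the control and 0.995% in the shRNA 1 library. mt-Nd1, a complex I subunit, had 108996 (control), 61597 (shRNA 1) and 80517 (shRNA 2) normalized counts. mt-Nd4l, another complex I subunit, had 3541, 1673 and 2712. Both were lowest in the shRNA 1 library. These shifts run alongside every group below, and their part in the results was not tested. Medians corrected for the trend with GC content and length are given for the 8 lists where the correction moved them most.

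The highest differences belonged to genes that were almost absent from the control. Batf, a basic leucine zipper factor of the AP-1 family, had 0.93 (control, about 1 read), 339 (shRNA 1) and 578 (shRNA 2) normalized counts. The ratio of shRNA 1 to control was 363, with a 95% counting interval of 64.9 to 14436. Rgs18, which speeds GTP hydrolysis by G-protein alpha subunits, had 0.93, 57.8 and 119. That ratio was 62.0 (95% counting interval 10.7 to 2500). Slc40a1, the iron exporter ferroportin, had 2.98, 80.8 and 75.7 in the same order, a ratio of 27.1 (95% counting interval 9.56 to 144). In all 3 genes both shRNA libraries lay far above the control. Rgs18 and Slc40a1 could reach the minimum mean only with a high shRNA 2 value, so for them the rule fixed this.

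The other 12 of the 15 highest genes were well above 1 read in the control and differed by 2.95 to 3.60. Cplane1, a ciliogenesis factor, had 140 (control), 1710 (shRNA 1) and 831 (shRNA 2) normalized counts. Pkd1, the membrane protein polycystin-1, had 229, 2750 and 951, and it overlaps Tsc2 on the opposite strand. Kif5c, a kinesin heavy chain, had 21.6, 227 and 66.5. In each of these genes the library labelled shRNA 2 was also above the control. Ccnd2, the G1 cyclin D2, had 329, 2864 and 1214, whereas Zeb1, a zinc finger repressor, had 21.5, 223 and 139. Lyrm7, an assembly factor of mitochondrial complex III, and Osbp2, an oxysterol-binding protein, were higher still in the library labelled shRNA 2. Their values were 15.1, 125 and 182 for Lyrm7 and 9.03, 76.3 and 131 for Osbp2. Osbp2 too could reach the minimum mean only with a high shRNA 2 value. Fam107b, Gm15446 and E030030I06Rik had differences of 3.58, 3.58 and 3.09. The cytokine Tnfsf15, also among the 15, was high in the shRNA 1 library alone, with 173, 2083 and 185.

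The 15 lowest genes split by what the library labelled shRNA 2 showed. In 7 of them it was within 1.5-fold of the control or above it. Zfp618, a zinc finger protein, had 99.3 (control), 1.13 (shRNA 1, about 1 read) and 103 (shRNA 2) normalized counts. The control was 87.6 times the shRNA 1 value (95% counting interval 15.7 to 3571). Zfp968 had 73.1, 4.24 and 97.6, a ratio of 17.2 (6.13 to 61.4). Nckipsd, an SH3 adaptor that binds Nck and acts in actin assembly, had 966, 106 and 1228. All 3 were far lower in the shRNA 1 library than in both others. Zfp618 and Zfp968 could reach the minimum mean only if the library labelled shRNA 2 was also well above the shRNA 1 value. Dusp12, a phosphatase, had 1247, 345 and 1119. Tfec, a transcription factor of the MiT family, had 144, 40.2 and 171. The endosomal RNA sensor Tlr8 had 384, 114 and 529, and the scavenger receptor Stab1 had 189, 53.6 and 355. For Tlr8 and Stab1 the library labelled shRNA 2 was the highest.

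In the other 8 of the lowest 15 the library labelled shRNA 2 was also below the control. Il17rc, a receptor subunit for interleukin 17, had 1909 (control), 351 (shRNA 1) and 302 (shRNA 2) normalized counts. Col18a1, the collagen XVIII chain, had 690, 170 and 267. For these 2 genes both shRNA libraries were at well under the control's level. Lims2, which couples integrin-linked kinase to the cytoskeleton, had 350, 102 and 30.2, and Kank3, an adaptor of the KANK family, had 124, 32.5 and 26.3. The small heat shock protein Hspb7 had 118, 34.5 and 57.0, and Zfp771 had 227, 58.7 and 126. Lims2 was lowest in the library labelled shRNA 2, and Hspb7 and Zfp771 in the shRNA 1 library. Gm49369 (-3.06) shares its strand and position with the cathepsin gene Ctsd, and Gm42715 (-2.41) with Srcap, so reads of these pairs may have been divided between them. The values of both are uncertain. Kank3, Col18a1 and Stab1 overlap genes on the opposite strand, and the sources used here do not say whether counting used strand, although the library kit keeps it.

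**Figure D2:**
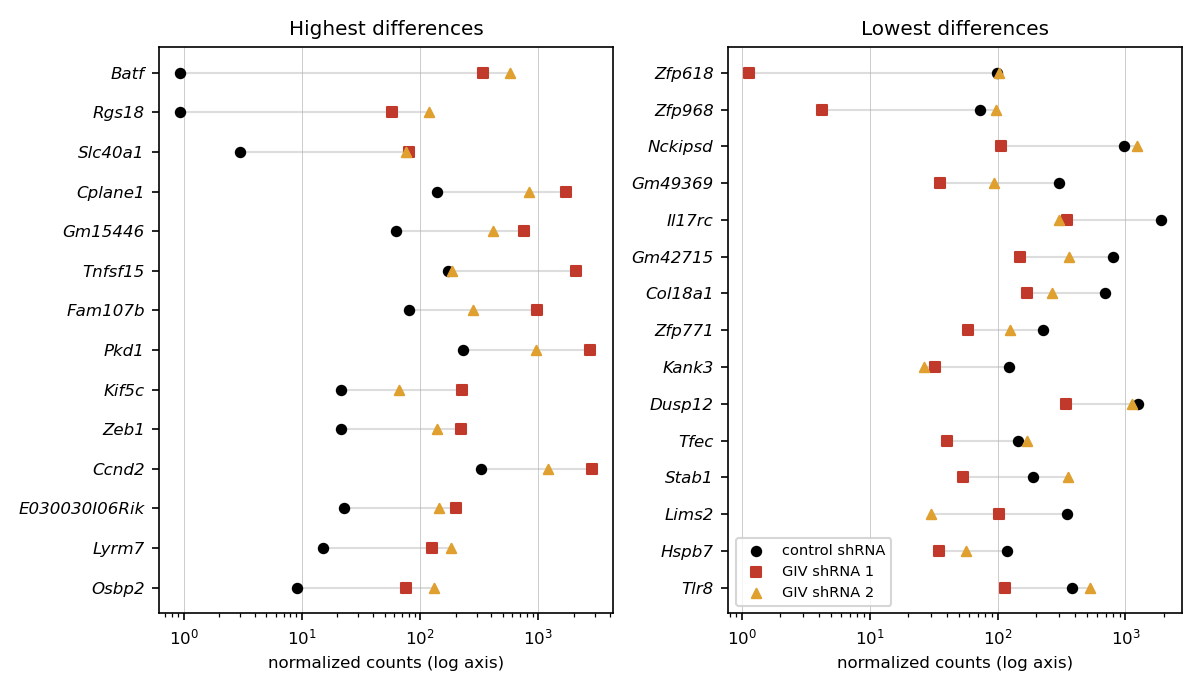
Normalized counts (horizontal log axis) in the control (black circles), shRNA 1 (red squares) and shRNA 2 (yellow triangles) libraries for 14 of the 15 genes with the highest (left) and the 15 with the lowest (right) difference of shRNA 1 minus control, 1 library per point. The triangles of Tnfsf15, Zfp618 and Dusp12 lie at the control, whereas those of Batf and Il17rc lie beside the squares.

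Abundant genes are the best measured, and those past 2-fold included several outside the inflammatory lists, named here after their values were seen. Of 3154 genes with a mean of at least 3000, 26 were at least 2-fold higher (0.824%) and 1 was lower. Ptpa, an activator of the phosphatase PP2A, had 1877 (control), 12181 (shRNA 1) and 9675 (shRNA 2) normalized counts, a difference of 2.70. Morc3, a nuclear ATPase, had 2453, 12945 and 12100. Tpr, of the nuclear pore basket, had 5397, 17843 and 21103. In these 3 genes both shRNA libraries lay far above the control. Nfat5, a transcription factor of the osmotic stress response, had 7744, 19332 and 21059, and Huwe1, a large ubiquitin ligase, had 7506, 15734 and 23488. Pdgfb, a growth factor chain, had 7001, 15176 and 8036, and Phf3, a transcription regulator, had 1827, 6393 and 2298, so for these 2 the shRNA 1 library alone was far above the control. The 1 lower gene was Bst1, the surface enzyme CD157, with 8195, 3986 and 6233.

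Proinflammatory cytokine genes had a median difference of 0.25, against 0.01 over all genes. Of 20 listed, 16 passed the rule. At least 2-fold higher were 7 of these 16, against 2.15% of all genes, and 0 were 2-fold lower. This list, like the other lists, was written with earlier results of these data known, so such contrasts are not tests. Il6, which drives fever and acute-phase proteins, had 1957 (control), 6114 (shRNA 1) and 8985 (shRNA 2) normalized counts, a difference of 1.64. Csf2, which encodes GM-CSF, had 166, 714 and 899. Il1b, cut by caspase-1 to release active cytokine, had 31161, 75964 and 52880. In these 3 genes both shRNA libraries were above the control. Lif, a cytokine of the IL-6 family, had 3760, 13544 and 4637, with the shRNA 1 library alone far above the control. Tnfsf15, given above, had the same pattern. Il1a (10212, 27315 and 17605) and Il33 (5372, 11092 and 8155), both of the IL-1 family, complete the 7 and were named after their values were seen. Tnf was close to the control, with 35124, 41171 and 41924 and a difference of 0.23. The member with the lowest difference was Ebi3, at -0.61, also named after its value was seen.

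Promoters of 4 of the 2-fold higher genes are shown because their letters hold motifs of factors that TLR4 is known to activate. They are the 250 bases before the annotated start, from RefSeq on GRCm38.p6, 5′ to 3′ along the gene's strand. Capitals mark matches to the AP-1 motif TGANTCA or to the NF-kB motif, searched on both strands. Positions count back from 1 at the base before the start. Il6 (chr5:30012864-30013113, plus strand) has an AP-1 match from 249 to 243 and an NF-kB match from 44 to 35. Lif (chr11:4257318-4257567, plus strand) has an AP-1 match from 228 to 222 and an NF-kB match from 178 to 169. Cxcl2 (chr5:90903649-90903898, plus strand) has overlapping NF-kB matches from 97 to 87, and Ifnb1 (chr4:88522795-88523044, minus strand) has one from 116 to 107.
Il6: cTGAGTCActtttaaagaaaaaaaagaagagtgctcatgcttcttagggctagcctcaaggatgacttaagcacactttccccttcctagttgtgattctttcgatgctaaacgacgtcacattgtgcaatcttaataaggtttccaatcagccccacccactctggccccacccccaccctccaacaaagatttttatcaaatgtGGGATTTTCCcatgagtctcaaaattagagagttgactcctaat
Lif: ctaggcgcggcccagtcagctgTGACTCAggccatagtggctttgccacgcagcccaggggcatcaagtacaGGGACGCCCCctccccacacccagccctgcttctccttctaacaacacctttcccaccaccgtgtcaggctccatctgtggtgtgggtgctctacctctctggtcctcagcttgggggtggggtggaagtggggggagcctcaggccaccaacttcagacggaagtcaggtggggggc
Cxcl2: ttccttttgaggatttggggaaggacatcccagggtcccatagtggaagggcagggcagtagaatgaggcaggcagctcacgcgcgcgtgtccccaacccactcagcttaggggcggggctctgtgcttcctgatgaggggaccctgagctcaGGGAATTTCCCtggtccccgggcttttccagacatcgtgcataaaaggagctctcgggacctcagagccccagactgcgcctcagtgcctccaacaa
Ifnb1: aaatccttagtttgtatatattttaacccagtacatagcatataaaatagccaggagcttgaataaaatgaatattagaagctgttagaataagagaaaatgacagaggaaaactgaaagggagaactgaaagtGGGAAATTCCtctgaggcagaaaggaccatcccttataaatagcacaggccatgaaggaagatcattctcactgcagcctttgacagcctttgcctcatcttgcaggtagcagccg

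The same motifs were counted in every promoter that could be found. A promoter was found for 179 of the 223 higher genes, 53 of the 80 lower genes and 8312 of 10375 gene symbols of the rule. The NF-kB motif was in 9.50% of the higher, 9.43% of the lower and 8.57% of all those promoters, and in 7.01% of the 27025 promoters of the RefSeq table. For AP-1 the shares were 5.59%, 5.66%, 4.27% and 6.87%. For the E-box CACGTG they were 8.38%, 9.43%, 8.77% and 6.05%. The core of the interferon-stimulated response element (ISRE) was in 2.79% of the higher and 7.55% of the lower promoters, the latter being 4 genes, against 3.04% of both larger sets. A match is only a run of letters and says nothing of binding.

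Chemokine genes were mixed, with 7 of 15 above and 8 below the control and a median of -0.09, which was between -0.11 and 0.13 under the other settings and -0.01 once corrected. At least 2-fold higher were 4 of 15, against 2.15% of all genes, and 0 were 2-fold lower, against 0.771%. Cx3cl1, the membrane-bound chemokine fractalkine, had 34.3 (control), 196 (shRNA 1) and 110 (shRNA 2) normalized counts. Ccl22 and Ccl17, both ligands of Ccr4, had 9279, 26578 and 14730, and 105, 270 and 204. Cxcl2, which attracts neutrophils, had 11279, 25465 and 19893. In all 4 the shRNA 1 library was highest and the control lowest. Cx3cl1 met the minimum mean only through the shRNA libraries, where it is high. The monocyte attractants Ccl2 (14102, 10997 and 20716), Ccl7 (813, 595 and 1693) and Ccl12 (574, 306 and 1004), named after their values were seen, were lowest in the shRNA 1 library and highest in the library labelled shRNA 2.

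Of the T-cell costimulation list 12 genes passed the rule, with a median of 0.10 and 2 at least 2-fold higher, against 2.15% of all genes. Cd86, a ligand of Cd28, had 168 (control), 623 (shRNA 1) and 688 (shRNA 2) normalized counts. Icosl, the ligand of Icos, had 229, 635 and 739. Cd80, the other ligand of Cd28, had 1980, 3568 and 2983, above the control by less than 2-fold. Tnfsf9, the ligand of 4-1BB, had 3368, 2532 and 3022.

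Receptors for chemokines and cytokines tended to lower values. Of 31 that passed the rule, 23 were below the control, 9 by at least 1.5-fold against 3.72% of all genes, and the median was -0.15. At least 2-fold lower were 3, against 0.771% of all genes, Il17rc, given above, among them. Csf3r, the receptor of G-CSF, was another, with 309 (control), 139 (shRNA 1) and 497 (shRNA 2) normalized counts, so the other shRNA library was above the control. Tnfrsf1a, the main death-domain receptor of TNF, went the other way, with 5123, 20227 and 17149, a difference of 1.98. It was the 1 receptor at least 1.5-fold higher, against 6% of all genes.

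**Figure D3:**
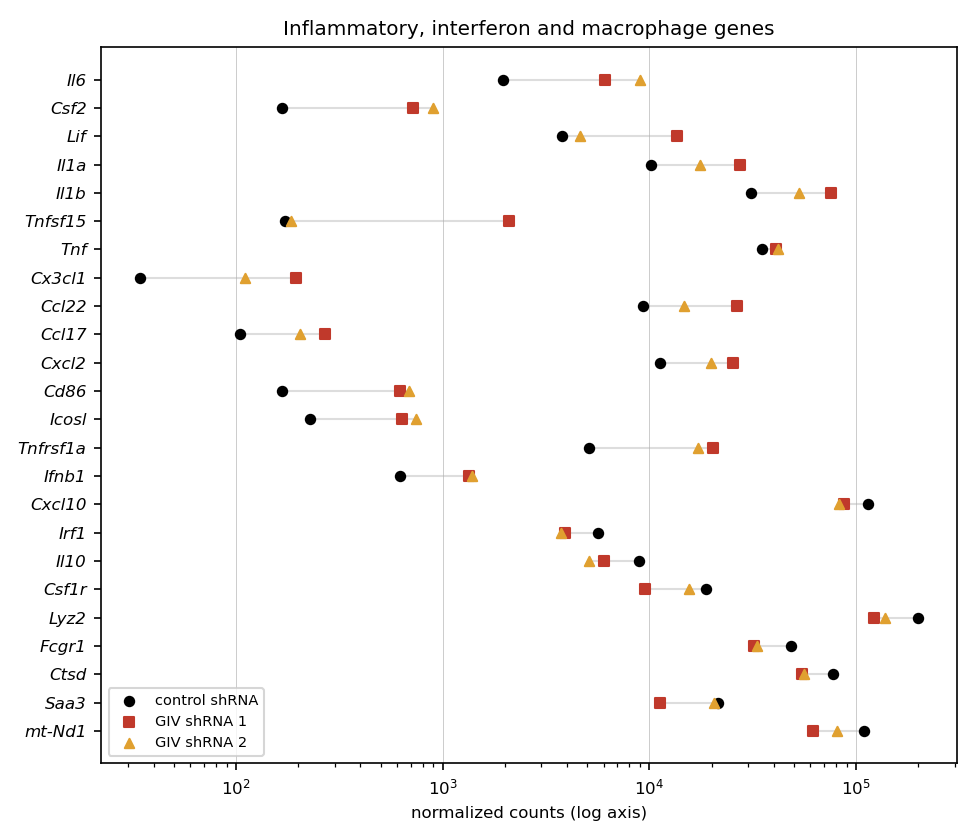
Normalized counts (horizontal log axis) of 24 inflammatory, interferon, macrophage and mitochondrial genes in the control (black circles), shRNA 1 (red squares) and shRNA 2 (yellow triangles) libraries, 1 library per point. From Il6 to Ifnb1 the squares lie to the right of the circles, and from Cxcl10 to mt-Nd1 they lie to the left. The genes were picked and ordered with their values known, and the lower cytokine genes Ccl2, Ccl7, Ccl12 and Ebi3 are not shown.

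The TLR4 receptor complex and its proximal kinases held 1 gene past 1.5-fold. Of 26 genes that passed the rule, 14 were above the control and 12 below it, with a median of 0.05. At least 1.5-fold higher were 0 and 1 was lower, against 6% and 3.72% of all genes. Tlr4 had 2440 (control), 2023 (shRNA 1) and 2412 (shRNA 2) normalized counts. Its co-receptor Cd14 had 119577, 122965 and 112411, a difference of 0.04, and the adaptor Myd88 had 13555, 12978 and 12128. The difference of Cd14 was positive under every scaling tried. The gene past 1.5-fold was Tab1, an activator of the kinase TAK1, with 849, 560 and 802. Ikbkb, which encodes a catalytic subunit of the IkB kinase, had 2533, 3786 and 3471, and Irak3, an inhibitory member of the IRAK family, had 764, 520 and 943. Irf3, the factor downstream of Ticam1, had 2420, 1720 and 2062. Ikbkb was above and Irf3 below the control in both shRNA libraries, and Irak3 was lowest with shRNA 1 and highest in the library labelled shRNA 2.

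NF-kB subunits and their feedback inhibitors had a median of -0.02. At least 1.5-fold lower were 0 of 20 and 1 was higher, against 3.72% and 6% of all genes. That gene was Traf1, an NF-kB target and TNF receptor adaptor, with 7505 (control), 12157 (shRNA 1) and 8931 (shRNA 2) normalized counts. Among 14 inhibitors of cytokine signalling the median was 0.07. Cish, a SOCS-family protein induced through STAT5, had 245, 762 and 575, a difference of 1.63, whereas Socs1 had 514, 290 and 236. These 2 members of one family thus lay on opposite sides of the control in both shRNA libraries. Of 24 AP-1, EGR and other immediate-early factors, 2 were at least 2-fold higher, Batf and Ier3, against 2.15% of all genes. At least 2-fold lower were 0, against 0.771%. Batf met the minimum mean only through the shRNA libraries, where it is high. Ier3 had 8483, 18527 and 9714, with the shRNA 1 library alone far above the control. The median of that list was -0.10, and 0.02 once corrected for GC content and length, while that of the NF-kB list became 0.09.

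Interferon beta was higher, while most genes it induces lay slightly below the control. Ifnb1 had 620 (control), 1338 (shRNA 1) and 1385 (shRNA 2) normalized counts, a difference of 1.11. It was the only 1 of 45 interferon-response genes past 1.5-fold higher, against 6% of all genes. Of the 45, 33 were below the control and 12 above it, but 1 was at least 1.5-fold lower, a share below the 3.72% of all genes, and the median was -0.12. The lower one was Socs1. Irf1, a transcription factor of the response, had 5652, 3925 and 3718, whereas Cxcl10, a ligand of Cxcr3, had 113956, 87117 and 82837. In the library labelled shRNA 2 the median of the same 45 genes was -0.40. No test sets those values apart, and both share the control.

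Genes of MHC class I presentation had a median of -0.22, or -0.12 once corrected for GC content and length, with 15 of 19 below the control. Past 1.5-fold either way were 0, against 9.72% of all genes. Tap1, a peptide transporter, had 23768 (control), 17564 (shRNA 1) and 14131 (shRNA 2) normalized counts. The immunoproteasome subunits Psmb10 and Psmb8 had 9122, 6682 and 6323, and 12716, 9877 and 8200. H2-Q4, a class I molecule with close copies whose reads may be shared, had 13227, 9979 and 7529. All 4 genes were lower in both shRNA libraries than in the control. The list's median in the library labelled shRNA 2 was -0.53. Only 3 of 10 class II presentation genes passed the rule, Ctss, H2-DMa and Cd74, with differences of -0.24, -0.19 and 0.06. Their median was -0.19, and -0.09 once corrected, and it ran from -0.23 to 0.06 under the alternatives.

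Macrophage identity genes tended to lower values, with 18 of 23 below the control, 5 of them by at least 1.5-fold against 3.72% of all genes, and a median of -0.22. Csf1r, the receptor of M-CSF, had 18776 (control), 9476 (shRNA 1) and 15612 (shRNA 2) normalized counts, a difference of -0.99. Lyz2, a myeloid lysozyme, had 199781, 121997 and 138145, and the lipid-sensing receptor Trem2 had 2194, 1433 and 1515. The shRNA 1 library was the lowest in each of these 3 genes. In bulk RNA, fewer cells of a kind and less of a transcript per cell cannot be told apart.

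Phagocytosis and scavenger receptors had a median of -0.38, and 17 of 19 were below the control, 5 by at least 1.5-fold, against 3.72% of all genes. Above it by that much were 0, against 6%. Fcgr1, the high-affinity Fc receptor for IgG, had 48715 (control), 32239 (shRNA 1) and 33167 (shRNA 2) normalized counts. Clec4d and Clec4n, which encode the C-type lectins MCL and Dectin-2, had 12033, 7177 and 11947, and 88.1, 54.9 and 85.8. These 2 lectins were lower in the shRNA 1 library alone, as was Stab1. The list shares 3 genes with macrophage identity and 3 with the tissue-repair list.

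Anti-inflammatory and tissue-repair genes had a median of -0.36, with 5 of 15 at least 1.5-fold lower and 2 at least 1.5-fold higher, against 3.72% and 6% of all genes. That median was -0.17 with the minimum mean lowered to 10. Il10, the main anti-inflammatory cytokine of macrophages, had 8907 (control), 6047 (shRNA 1) and 5109 (shRNA 2) normalized counts. Maf, a transcription factor that drives Il10, had 5352, 3141 and 4249. Nr4a1, an orphan nuclear receptor, went the other way, with 148, 391 and 248. Complement and acute-phase genes had a median of -0.52 and 9 of 10 below the control, 4 by at least 1.5-fold, against 3.72% of all genes. Saa3, an acute-phase serum amyloid, had 21473, 11319 and 20517. C1ra, a complement protease, had 2042, 1186 and 1568. The shRNA 1 library was the lowest in both.

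**Figure D4:**
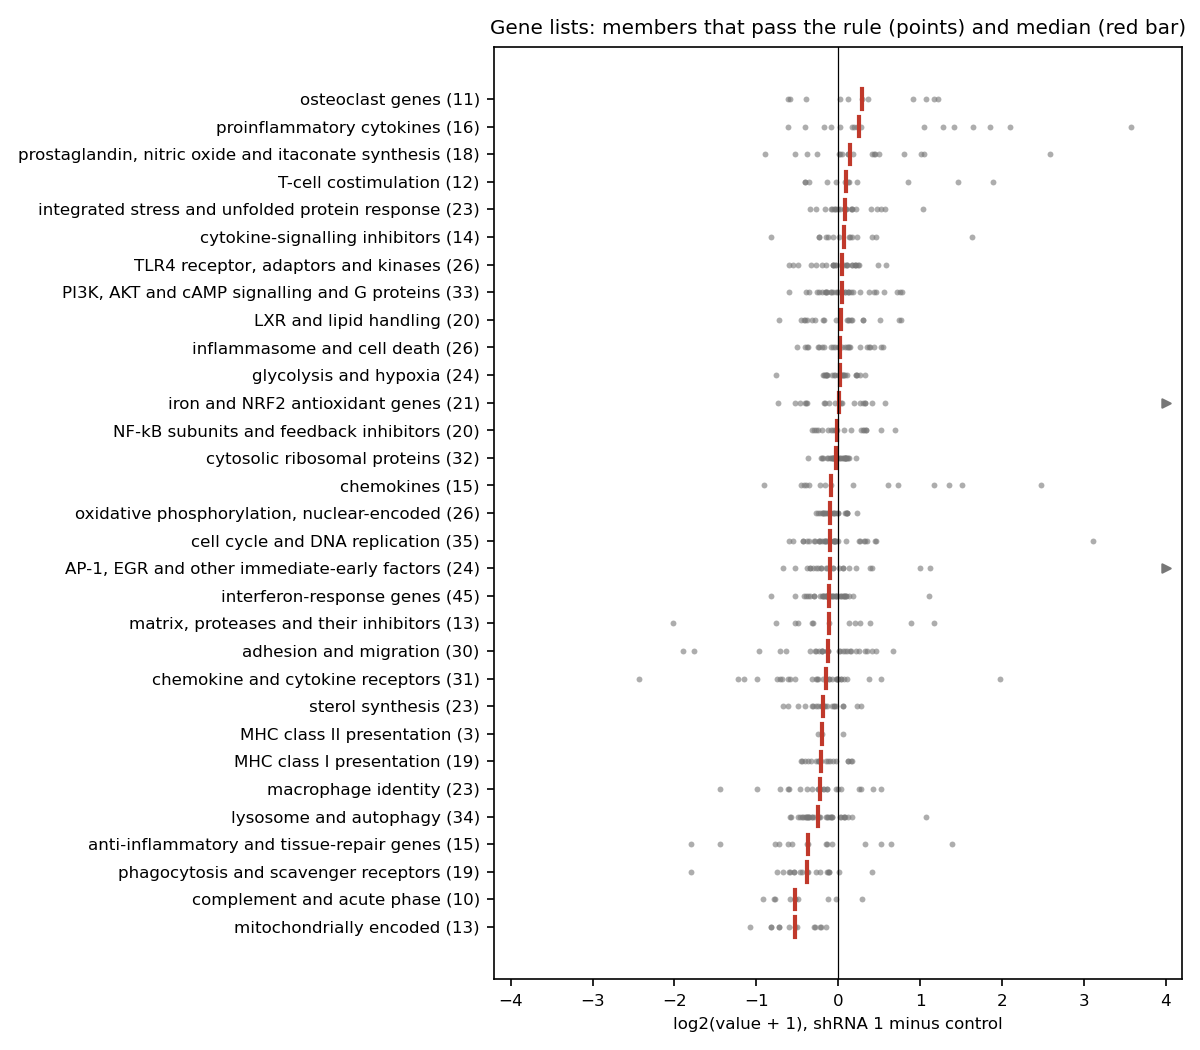
Differences of shRNA 1 minus control (horizontal axis, log2(value + 1)) for the members of 31 gene lists that pass the rule (grey points, their number in brackets) and each list's median (red bar), ordered by median; arrowheads stand for members beyond 4. Medians run from -0.53 for mitochondrially encoded genes to 0.29 for osteoclast genes.

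Lysosome and autophagy genes had a median of -0.24 with 26 of 34 below the control. Lower by at least 1.5-fold was 1 of 34, against 3.72% of all genes. Ctsd, the aspartic cathepsin, had 77016 (control), 55025 (shRNA 1) and 56244 (shRNA 2) normalized counts. Gaa, the acid alpha-glucosidase, had 3073, 2062 and 3455, and Ctsk, a collagen-cleaving cathepsin, had 240, 159 and 191. Atp6v0d2, a proton-pump subunit found in osteoclasts, was 2-fold higher, with 87.0, 183 and 32.7.

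Osteoclast genes, measured because RAW 264.7 cells can form osteoclasts, had a median of 0.29, which became 0.43 once corrected for GC content and length. Of 11 that passed the rule, 4 were at least 1.5-fold higher and 2 at least 1.5-fold lower, against 6% and 3.72% of all genes. Dcstamp, needed for cell fusion, had 718 (control), 1672 (shRNA 1) and 550 (shRNA 2) normalized counts. Mmp9, a gelatinase, had 4632, 10440 and 2188. Car2, carbonic anhydrase 2, had 14918, 28099 and 13456. In these 3 genes and in Atp6v0d2, the 4 higher ones, the shRNA 1 library was highest and the library labelled shRNA 2 lowest. Ctsk, with 240, 159 and 191, was 1 of the 2 lower ones, and the lowest difference in the list was -0.61. The median of the list in the library labelled shRNA 2 was -0.40.

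Of 30 adhesion and migration genes 5 were at least 1.5-fold lower and 1 higher, against 3.72% and 6% of all genes. At least 2-fold lower were 2, Kank3 and Lims2, against 0.771% of all genes. Kank3 met the minimum mean through the control, where it is high. The median was -0.12, and ran from -0.15 to 0.03 under the alternatives. After Kank3 and Lims2, the members with the largest differences were Itga6, an integrin chain of laminin receptors, with 121 (control), 61.4 (shRNA 1) and 78.4 (shRNA 2) normalized counts, and Fscn1, an actin-bundling protein, with 59.1, 35.8 and 108. Fscn1 was highest in the library labelled shRNA 2. Matrix genes and proteases had a median of -0.12, which ran from -0.31 to 0.01 under the alternatives. At least 1.5-fold higher were 2 of 13 and 2 were lower, against 6% and 3.72% of all genes. Past 2-fold were Mmp9, higher, and Col18a1, lower, against 2.92% of all genes in either direction. Mmp13, a collagenase, had 69.2, 129 and 132, and Serpinb2, an inhibitor of plasminogen activators, had 2080, 1227 and 1343.

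In prostaglandin, nitric oxide and itaconate synthesis the median was 0.15, with 3 of 18 at least 2-fold higher, against 2.15% of all genes. Ptgs1, which met the minimum mean through the libraries where it is high and encodes the constitutive cyclooxygenase, had 12.9 (control), 82.3 (shRNA 1) and 64.0 (shRNA 2) normalized counts. Ptger2, a prostaglandin E2 receptor, had 520, 1078 and 456, and Alox5, the first enzyme of leukotriene synthesis, had 215, 435 and 346. Ptges, a terminal synthase of prostaglandin E2, was below the control, with 454, 243 and 314. Nos2, which makes nitric oxide in activated macrophages, had 56568, 57600 and 48294, a difference of 0.03.

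Signalling, stress and death lists lay near the median of all genes. PI3K, AKT, cAMP and G-protein genes had a median of 0.04. At least 1.5-fold higher were 3 of 33 and 1 was lower, against 6% and 3.72% of all genes. The higher ones were Rgs1, Rgs16 and Pik3ca. Rgs1, a regulator of G-protein alpha subunits, had 8141 (control), 13974 (shRNA 1) and 6065 (shRNA 2) normalized counts, and Rgs16, of the same family, had 4675, 7885 and 1671. Both were highest with shRNA 1 and lowest in the library labelled shRNA 2. Pik3ca, a catalytic subunit of PI3K, had 1681, 2777 and 2218, and Pde7a, a cAMP phosphodiesterase, had 949, 623 and 939. Integrated stress and unfolded protein response genes had a median of 0.08, and 1 of 23 was at least 2-fold higher, against 2.15% of all genes. That gene was Ddit4, an inhibitor of mTORC1, with 481, 985 and 647. Inflammasome and cell death genes had a median of 0.03 and 0 of 26 past 1.5-fold, against 9.72% of all genes. Nlrp3, the inflammasome sensor, had 11226, 16170 and 13166, highest with shRNA 1.

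Metabolic and growth lists showed few differences past the size rules. Cell cycle and DNA replication genes had 26 of 35 below the control and a median of -0.10. Ccnd2, given above, was the 1 at least 2-fold higher, against 2.15% of all genes. Birc5, which encodes survivin, had 1821 (control), 1202 (shRNA 1) and 2165 (shRNA 2) normalized counts, and the mitotic factor Foxm1 had 1716, 1174 and 1738. Both were lowest in the shRNA 1 library. Sterol synthesis genes had 19 of 23 below the control, 2 by at least 1.5-fold against 3.72% of all genes, and a median of -0.18. Mvk and Pmvk, successive kinases of the mevalonate pathway, had 522, 327 and 492, and 665, 436 and 379. Mvk was low in the shRNA 1 library alone and Pmvk in both. Lipid-handling genes had a median of 0.04, with Nr1h2, which encodes LXR beta, at 1304, 2179 and 2841 and Apoe at 206, 124 and 204. Iron and antioxidant genes had a median of 0.01, which was below 0 under each of the 3 other scalings, and after Slc40a1 the largest difference was that of Blvrb, biliverdin reductase B, with 767, 462 and 756. In glycolysis the median was 0.02, at or below 0 with equal totals and with quantile normalization, with Hk3, a hexokinase, at 4763, 2816 and 3290. Nuclear-encoded oxidative phosphorylation genes (-0.09, or -0.01 once corrected) and cytosolic ribosomal protein genes (-0.02) had 0 members past 1.5-fold, against 9.72% of all genes. Ndufv1, a complex I subunit, had 3504, 2912 and 3183, and Rps6 had 50691, 59188 and 52047. The ribosomal median was 0.10 once corrected.

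Of the 223 genes at least 2-fold higher with shRNA 1, 110 were also 2-fold higher in the library labelled shRNA 2, 36 were near the control there and 2 were 2-fold lower. Of the 80 at least 2-fold lower, 20 were also 2-fold lower there, 23 were near the control and 0 were 2-fold higher. Both comparisons use the same control library, so these counts are given side by side and not as agreement. The matching shares over all genes in the library labelled shRNA 2 are not given here. In 54 of the 223 the control value was under 50, and in 23 of the 80 the shRNA 1 value was. Those genes met the minimum mean through libraries where they are high. Nothing is read from these counts. Among the genes near the control in the library labelled shRNA 2, the 8 highest with shRNA 1 were Tnfsf15, Slc17a6, Epb41l1, Faah, Lif, Tmem143, Lag3 and Syne2. Slc17a6, a vesicular glutamate transporter, had 32.8 (control), 169 (shRNA 1) and 31.8 (shRNA 2) normalized counts. Epb41l1, which links the membrane to the actin skeleton, had 32.1, 152 and 37.0. Lag3, an inhibitory receptor that binds class II molecules, had 48.8, 148 and 43.3, and Syne2, a nuclear envelope linker, had 83.1, 234 and 81.7. Apart from Lif and Tnfsf15, these are genes of low to moderate value.

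The 8 lowest with shRNA 1 by the same rule were Zfp618, Dusp12, Tfec, F10, Mkx, Galnt2, Mkrn2 and Tmem161b. F10, coagulation factor X, had 171 (control), 50.2 (shRNA 1) and 160 (shRNA 2) normalized counts. Mkrn2, a ubiquitin ligase, had 695, 262 and 689. In both the other shRNA library lay near the control, as the rule for picking them required. Galnt2, an enzyme that starts O-linked glycosylation, had 263, 95.7 and 236 and overlaps Gm20388 on its own strand. Mkx, a homeobox factor, differed by -1.74 with shRNA 1 and by -0.04 in the library labelled shRNA 2, and Tmem161b had 1361, 515 and 1096. By the way they were picked, all of these genes were lower in the shRNA 1 library than in both others.

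By chromosome, medians of the nuclear genes ran from -0.06 on chromosomes 7, 17 and 19 to 0.07 on chromosomes 13 and 18, leaving out the 7 genes of chromosome Y (0.13). Along the genome, 1 run of at least 4 neighbouring genes of the rule was past 1.5-fold in one direction. It held Tmem268, Tnfsf15, Tnfsf8 and Tnc on chromosome 4, from 63558781 to 64047015 (GRCm38), and was picked out after its values were seen. Tnfsf8, the ligand of Cd30, had 383 (control), 725 (shRNA 1) and 138 (shRNA 2) normalized counts. Tnc, the matrix protein tenascin-C, had 19576, 34132 and 12450. For both, the shRNA 1 library was the highest and the library labelled shRNA 2 the lowest. Tmem268 differed, with 315, 1001 and 1084, high in both shRNA libraries.

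Within 1 Mb on either side of the run lay 5 more genes of the rule, and 3 of these were past 1.5-fold, 1 higher and 2 lower. Over all genes that share was 9.72% in either direction, and nothing is read from the contrast because the region was chosen by its values. The 2 lower ones, Zfp618 and Ambp, are neighbours. Zfp618 (chromosome 4, 62965573 to 63139708) is the gene with the lowest difference of all, given above. Ambp, which encodes the precursor of alpha-1-microglobulin and bikunin, had 302 (control), 134 (shRNA 1) and 275 (shRNA 2) normalized counts. Rgs3, a regulator of G-protein signalling, had 337, 812 and 907. Between Ambp and Tmem268, Akna (2546, 3133 and 2716) and Atp6v1g1 (4843, 5017 and 4778) were near the control.

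**Figure D5:**
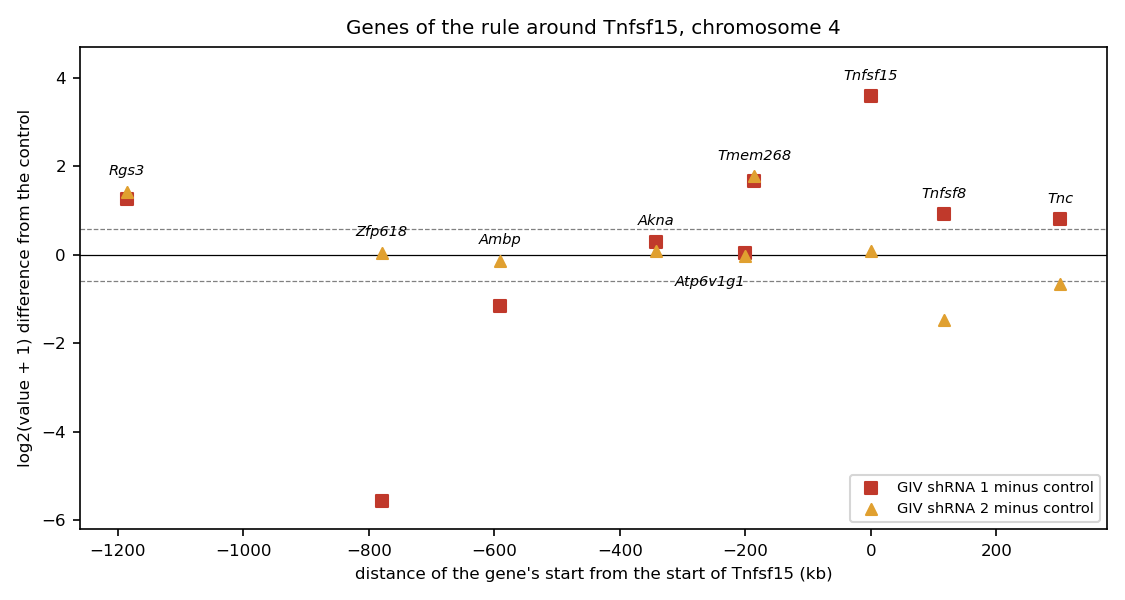
Difference from the control (vertical axis, log2(value + 1)) of the 9 genes of the rule on chromosome 4 around Tnfsf15, against the distance of each gene's start from that of Tnfsf15 (horizontal axis, kb), for shRNA 1 (red squares) and shRNA 2 (yellow triangles), 1 library each; dashed lines mark 1.5-fold. Squares and triangles lie together at Rgs3, Akna, Atp6v1g1 and Tmem268 and apart at Zfp618, Ambp, Tnfsf15, Tnfsf8 and Tnc.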

How the data were processed

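RNA of 3 libraries was sequenced after a stranded mRNA preparation, per the labels' protocols, and groups were taken from the sample titles. The authors deposited 1 table of normalized counts, classed here as signal. Salmon, DESeq, DESeq2 and GRCm38 are named without versions or roles in the submitters' processing notes, and how the values were scaled is not stated in what was used here. A count test was not run on these values. Identifiers were matched without version to GENCODE M21, which named 54097 of 54331. Differences are log2(value + 1) of shRNA 1 minus control over protein-coding genes above 0 in all 3 libraries with a mean of at least 50, computed with pandas 2.3.3 and numpy 2.4.6 in Python 3.11.15. Genes were counted at 2-fold and 1.5-fold. Only the 2-fold rule was tried on simulated data, with a noise level that was set and not estimated from these libraries. Length and GC content are those of the longest coding transcript.

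The members, the 31 gene lists and the rules were chosen with earlier results of these data known. Genes named are Ccdc88a and its paralogs, the 15 highest and 15 lowest, the 8 highest and 8 lowest among genes near the control in the library labelled shRNA 2, up to 4 members per list with the largest difference, and 10 LPS readouts. Some of these are not reported here. Others were named after their values were seen, including abundant genes and neighbours on chromosome 4. Alternatives covered the pseudocount, filters, scaling, the fold rule and a GC and length trend.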

Additional observations from a re-analysis of the deposited data

Results flagged for a closer look

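For 2 named genes the shRNA 1 library was at least 2-fold above the control while the library labelled shRNA 2 was at least 2-fold below it, and this difference between the libraries was not tested. Atp6v0d2, a proton-pump subunit of osteoclasts, differed by 1.07 with shRNA 1 and by -1.38 in the library labelled shRNA 2. Mmp9, a gelatinase, differed by 1.17 and -1.08. Groups of 1 library cannot be searched for samples that stand apart.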

How the results depend on the processing

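No paired analysis was possible because each group has 1 library. Counts of 2-fold higher and lower genes depended on the filter and the fold, with 380 and 199 at a mean of at least 10 and 141 and 38 at a mean of at least 200. At 1.5-fold they were 623 and 386, a split of 61.7% higher against 73.6% at 2-fold, and at 3-fold 76 and 21. Corrected for GC content and length, the difference of Ccdc88a was -0.80. The cause was not tested. Under the other settings tried these counts stayed within 1.5 times, including the alternative of at least 10 in both libraries, chosen after seeing the data (216 and 78). Of 310 list medians recomputed, 307 stayed within the list's own order-statistic interval and none of those at least 0.2 from 0 changed sign. Scaling moved the median of all genes by at most 0.03. Depth limits genes near a value of 50, and the single control limits every value.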

Other observations

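Families grouped by symbol after the values were seen include one of G-protein regulators. Of 21 Rgs genes, which encode regulators of G-protein signalling, 10 passed the rule, with a median of 0.51. At least 1.5-fold higher were 5 of these 10 and 1 was lower, against 6% and 3.72% of all genes. Nothing is read from these counts, since the family was picked by its values and Rgs8 and Rgs18 met the minimum mean only through libraries where they are high. Rgs8 had 30.5 (control), 150 (shRNA 1) and 15.3 (shRNA 2) normalized counts. Rgs11, the lower one, had 176, 114 and 222. In the library labelled shRNA 2 the median of the same 10 genes was -0.20.

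Families of intraflagellar transport, the centrosome and kinesins were picked in the same way, and nothing is read from their counts either. Cep170b and Kif5c met the minimum mean through libraries where they are high. Of 14 intraflagellar transport (Ift) genes 3 were at least 1.5-fold higher, with a median of 0.10, and of 32 centrosomal (Cep) genes 5 were, with a median of 0.19, against 6% of all genes. Ift80 had 284 (control), 1272 (shRNA 1) and 802 (shRNA 2) normalized counts, and Ift81 had 196, 439 and 197. Cep170b had 36.1, 281 and 155, and Cep162 had 486, 1209 and 884. Kinesin (Kif) genes had a median of -0.07, with 3 of 28 at least 1.5-fold higher and 2 lower, against 6% and 3.72% of all genes. Among other families grouped by symbol, 11 cilium genes (Nphp and Bbs) had a median of -0.17 and 6 semaphorin genes one of -0.41.

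Outside the rule, 8 protein-coding genes had a mean of at least 50 but were listed at 0 in some library. Gm28539 had 178 normalized counts in the shRNA 1 library and was listed at 0 in the 2 others, whereas Gm28635 was listed at 0 in both shRNA libraries and had 157 in the control. Among 1006 other features above 0 throughout, not protein coding or unmatched, 19 were 2-fold higher with shRNA 1 (1.89%) and 30 lower (2.98%), against 2.15% and 0.771% of the protein-coding genes of the rule.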
